A study of Mus musculus with 100 samples.

Results

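The core pluripotency factors described here are 9 genes, Pou5f1, Sox2, Nanog, Sall4, Sall1, Lin28a, Utf1, Zfp281 and L1td1, out of 24206 named genes. They were chosen by symbol, and each is represented by whichever of its transcripts had the highest mean over the series. All 9 were matched and all 9 passed the filter on low values in each of the 3 sets of libraries. Their levels were measured by mRNA sequencing in V6.5 cells, a hybrid mouse embryonic stem (ES) cell line, after a short hairpin RNA (shRNA) had been used to lower a single subunit of TFIID, Mediator or SAGA. The series holds 100 libraries in 50 groups of 2, of which 47 are knockdowns and 3 carry a control hairpin. All groups share the same culture and handling: growth with serum and LIF on feeder fibroblasts, removal of the feeders, transfection with 1.8 µg of plasmid, puromycin from 24 h and selection for 72 h.

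The control labels divide the libraries into 3 sets. Set A holds 15 TFIID knockdowns (shTbp, shTaf1 to shTaf13 as labelled, with shTaf4b) and 5 knockdowns of Mediator subunits of the lower tail (shMed15, shMed16, shMed23, shMed24 and shMed25), with control_A. Set B holds 23 further Mediator knockdowns and the SAGA knockdowns shGcn5 and shUsp22, with control_B. Set C holds shMed1 and shMed14, with control_C. Whether the paired libraries come from separate cultures is not stated in the labels, so p-values measure only the spread between these libraries, which may be technical.

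Levels are RPKM, that is, reads relative to the length of the transcript and the size of the library, as deposited by the authors. The depth recovered from the RPKM steps was 17.25 to 39.32 M reads per library (median 23.32 M), and the least covered member, Nanog, rested on at least 625 reads in every library. In set B the target of each hairpin stood at a median of 26.6% of control in replicate 1 and 27.3% in replicate 2. In set A it stood at a median of 102.4% in the libraries labelled replicate 1 and at 34.1% in those labelled replicate 2, so set A is described by its replicate 2 libraries, 1 for each knockdown, against both control libraries. In set C the target stood at 61.5% to 66.0% of control in replicate 1 and at 97.9% to 99.1% in replicate 2. In set B all 52 libraries lay closest to their partner, whereas 1 of the 42 libraries of set A did and 0 of the 6 of set C. The ES cell markers Zfp42 (at least 19.1 RPKM), Esrrb (11.3), Dppa5a (110) and Tdgf1 (81.8) were present in all 80 libraries used. Of the feeder fibroblast markers, Col3a1, Dcn, Lum, Postn and Pdgfrb were under 1 RPKM in all 80, and Lum was at 0 in 63 of them. The other 5 of the 10 markers rose above that level in some libraries, up to 4.03 RPKM for Col1a1, 2.80 for Fbn1, 2.68 for Col1a2, 2.21 for Col5a2 and 1.99 for Thy1.

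ES cells keep themselves in the pluripotent state through a small circuit of transcription factors that bind enhancers together and activate one another's genes. Pou5f1 (Oct4) and Sox2 bind DNA as a pair, Nanog is a homeodomain factor that joins them at many enhancers, and Sall4 and Sall1 are zinc finger factors of the same network. Utf1 is a chromatin-associated protein of undifferentiated cells, Zfp281 is a zinc finger factor that can activate or repress genes of the network, L1td1 is an RNA-binding protein, and Lin28a binds RNA and blocks the maturation of let-7 microRNAs. Mediator carries signals from such enhancers to RNA polymerase II through its head, middle and tail modules, with a kinase module that can bind and leave. TFIID binds the core promoter, and SAGA is a coactivator that modifies histones.

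The start regions of 4 members are given below, each from 250 bases before to 50 bases after a RefSeq start site in GRCm38.p6. Which start sites are used in these cells was not measured. Capitals mark matches, on either strand, to an octamer core (ATGCAAA), a Sox site (CATTGT), their composite (the Sox site, any base, then the octamer core) or a GC box (GGGCGG). Matches to TATAAA were searched as well. The octamer core and the Sox site lie within the composite.
Pou5f1, chr17:35505782-35506081, plus strand: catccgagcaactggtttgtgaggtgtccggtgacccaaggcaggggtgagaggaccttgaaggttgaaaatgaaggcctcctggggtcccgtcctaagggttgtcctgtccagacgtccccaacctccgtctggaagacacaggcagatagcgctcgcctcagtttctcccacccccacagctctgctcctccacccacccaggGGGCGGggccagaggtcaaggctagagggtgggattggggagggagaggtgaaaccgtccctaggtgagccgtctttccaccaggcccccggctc
Sox2, chr3:34649745-34650044, plus strand: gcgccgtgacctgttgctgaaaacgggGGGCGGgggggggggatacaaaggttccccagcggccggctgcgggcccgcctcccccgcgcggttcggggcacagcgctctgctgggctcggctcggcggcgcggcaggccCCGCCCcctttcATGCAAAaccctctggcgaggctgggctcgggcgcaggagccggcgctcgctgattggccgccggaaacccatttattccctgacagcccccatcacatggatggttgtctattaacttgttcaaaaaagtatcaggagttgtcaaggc
Nanog, chr6:122707315-122707614, plus strand: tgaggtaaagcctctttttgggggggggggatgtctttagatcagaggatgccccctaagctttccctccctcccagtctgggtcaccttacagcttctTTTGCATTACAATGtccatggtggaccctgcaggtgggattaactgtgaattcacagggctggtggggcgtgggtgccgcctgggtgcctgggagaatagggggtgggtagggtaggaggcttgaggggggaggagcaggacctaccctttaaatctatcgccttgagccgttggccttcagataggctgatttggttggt
Lin28a, chr4:134018767-134019066, minus strand: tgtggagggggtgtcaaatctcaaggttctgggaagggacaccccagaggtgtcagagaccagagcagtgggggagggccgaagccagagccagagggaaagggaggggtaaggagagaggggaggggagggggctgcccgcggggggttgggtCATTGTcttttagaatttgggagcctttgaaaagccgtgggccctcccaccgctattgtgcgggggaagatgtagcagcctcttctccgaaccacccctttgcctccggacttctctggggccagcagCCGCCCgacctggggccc

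Nanog was the only one of the 8 members with a RefSeq window whose window held the composite, and the 2 windows that held it among 32851 in the table (0.00609%) were both windows of Nanog. These 2 windows overlap and hold the same single site. The Sox2 window held an octamer core, which 4.63% of all windows hold. The Lin28a window held a Sox site (12.6% of windows). A GC box was found in 7 of the 12 windows of the members, against 35.7% of all windows, and TATAAA in 0 of the 12, against 13.6%. Such matches describe letters in these windows and do not show binding.

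In the control cells Pou5f1 was the most abundant of the 9 and Sall1 or Zfp281 the least. In control_B Pou5f1 stood at 435.9 and 413 RPKM, Utf1 at 274.2 and 246, and L1td1 at 232.7 and 239.1. Sox2 followed at 120.1 and 115.9 RPKM, Lin28a at 104.7 and 102.6, Sall4 at 64.6 and 63.2, and Nanog at 60.9 and 58.4. Zfp281 (25.6 and 27.2 RPKM) and Sall1 (22 and 21.2) were lowest, and no neighbours in this order overlapped. In control_A the same 3 genes led, while Sox2 (89.6 and 102.9 RPKM) overlapped with Lin28a (92.6 and 96.3) and Sall1 (23.6 and 24.9) with Zfp281 (24.4 and 21.7). In control_C Nanog stood higher than in the other controls, at 138.4 and 136.9 RPKM, and Sall4 lower, at 32.4 and 36.

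Across the 25 knockdowns of set B, the core factors were more often lower than higher. Of 225 pairs of a member and a knockdown, 119 were lower (52.9%, where 15.4% of all gene and knockdown pairs were), 21 were higher (9.33%, where 16% were) and 85 were not called. Calls are at an adjusted p under 0.05 with limma over 12505 genes. With a change of at least 1.5-fold as well, 36 pairs were lower (1.53% of all pairs were) and 2 were higher (2.35% were). In bulk RNA, fewer cells with a transcript and less of it in each cell cannot be told apart. All 25 comparisons share the 2 libraries of control_B. In a fit of all 100 libraries, which pools the spread of sets A and C, 44 pairs were lower and 3 higher, while in a fit of the 80 libraries used here 85 were lower and 20 higher. In the latter fit Pou5f1 was lower in 9 knockdowns, Sox2 in 5 and Zfp281 in 8.

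**Figure D1:**
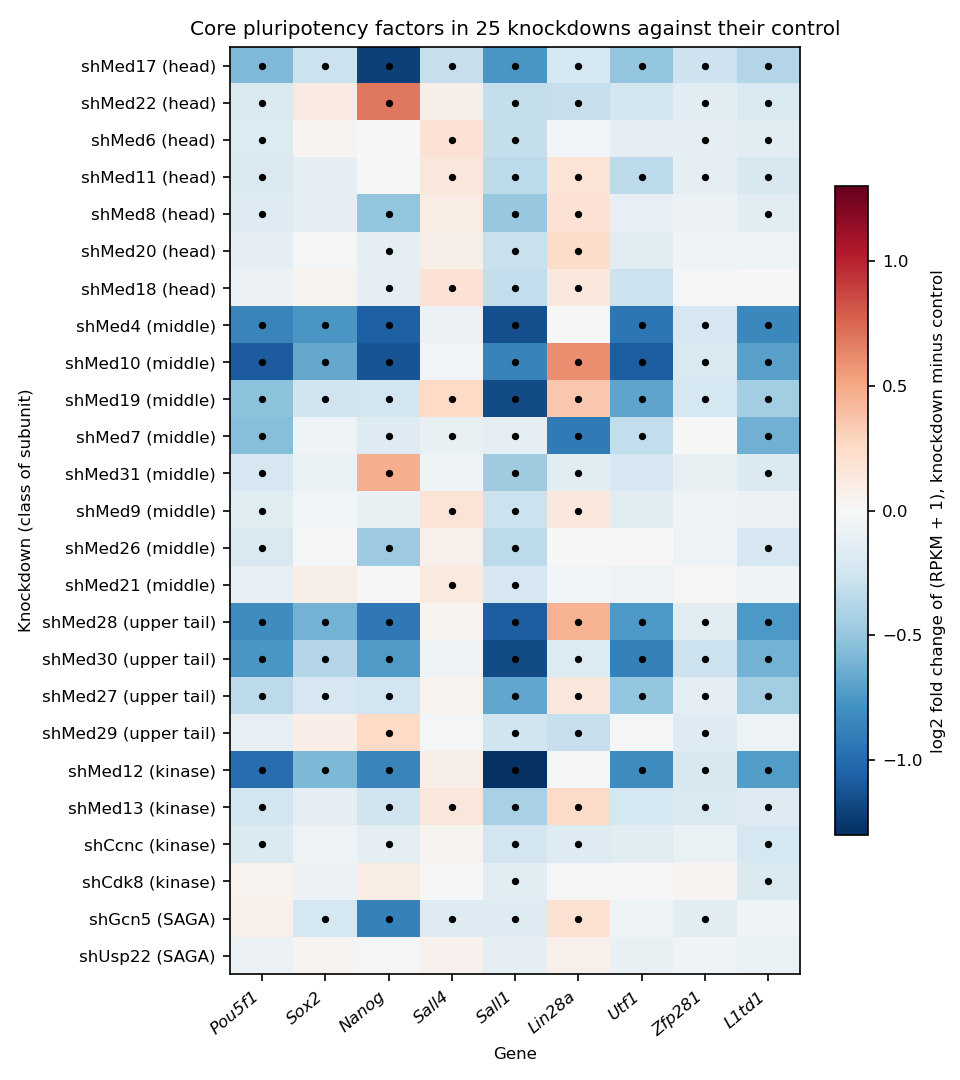
Log2 fold change of RPKM + 1 for 9 members (columns) in 25 knockdowns of set B (rows, with the class of the subunit), 2 libraries in each group. Dots mark adjusted p under 0.05 (limma); shMed17 has all 9 members lower and shUsp22 has none called.

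Pou5f1 was lower in 18 of 25 knockdowns and higher in 0. Its lowest libraries were those of shMed10, at 209.6 and 189.5 RPKM, then shMed12 at 216.3 and 209.7, and shMed4 at 236.8 and 230.2, against 435.9 and 413 in control_B. These groups did not overlap with the control, and the log2 changes were -1.09, -0.99 and -0.86 (SE 0.05; adjusted p = 1.00e-18, 1.38e-17 and 4.52e-16). Knockdown of Med28 (243.1 and 239.3 RPKM, -0.81) and Med30 (261.9 and 240, -0.76) made up the 5 knockdowns with Pou5f1 at least 1.5-fold lower. The highest level was in shGcn5, at 447.1 and 438 RPKM, above both control libraries but not called (0.06 ± 0.05, adjusted p = 0.361).

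Sox2, the partner of Pou5f1, was lower in 9 knockdowns and higher in 0. It was lowest in shMed4, at 70.3 and 68.6 RPKM against 120.1 and 115.9 (log2 -0.76 ± 0.06, adjusted p = 2.19e-13), followed by shMed10 at 77.9 and 70.2 RPKM (-0.67) and shMed28 at 77.5 and 75.9 (-0.62). In shMed7, where Pou5f1 was lower (294.6 and 283.2 RPKM, -0.55), Sox2 stood at 117.7 and 109 RPKM and was not called (-0.06, adjusted p = 0.407). In shGcn5 Sox2 was lower (103.7 and 97.6 RPKM, -0.23) while Pou5f1 was not called. All the knockdowns with Sox2 lower, except shGcn5, also had Pou5f1 lower.

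Nanog had the widest range of the 9 over the 25 knockdowns, with an SD of 0.50 on the log2 scale. It was lower in 16 and higher in 3. The lowest libraries were those of shMed17, at 24.4 and 25.8 RPKM against 60.9 and 58.4 (log2 -1.22 ± 0.04, adjusted p = 2.35e-22), then shMed10 (27.7 and 26.1 RPKM, -1.12) and shMed4 (28.5 and 27.7, -1.06). The highest were those of shMed22, at 97.6 and 95.4 RPKM (0.69 ± 0.04, adjusted p = 2.23e-15), followed by shMed31 at 84.7 and 81.4 (0.47) and shMed29 at 72 and 71.2 (0.26). No library of these 6 knockdowns overlapped with the control. Med17 and Med22 are both head subunits, and Nanog differed between their knockdowns by 1.90 ± 0.04 (adjusted p = 3.32e-27, limma). These were the lowest and the highest of the 25, a choice that the adjusted p does not allow for. Gcn5 knockdown left Nanog at 31.5 and 32.6 RPKM (-0.87 ± 0.04, adjusted p = 6.03e-18), with Pou5f1 not called.

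**Figure D2:**
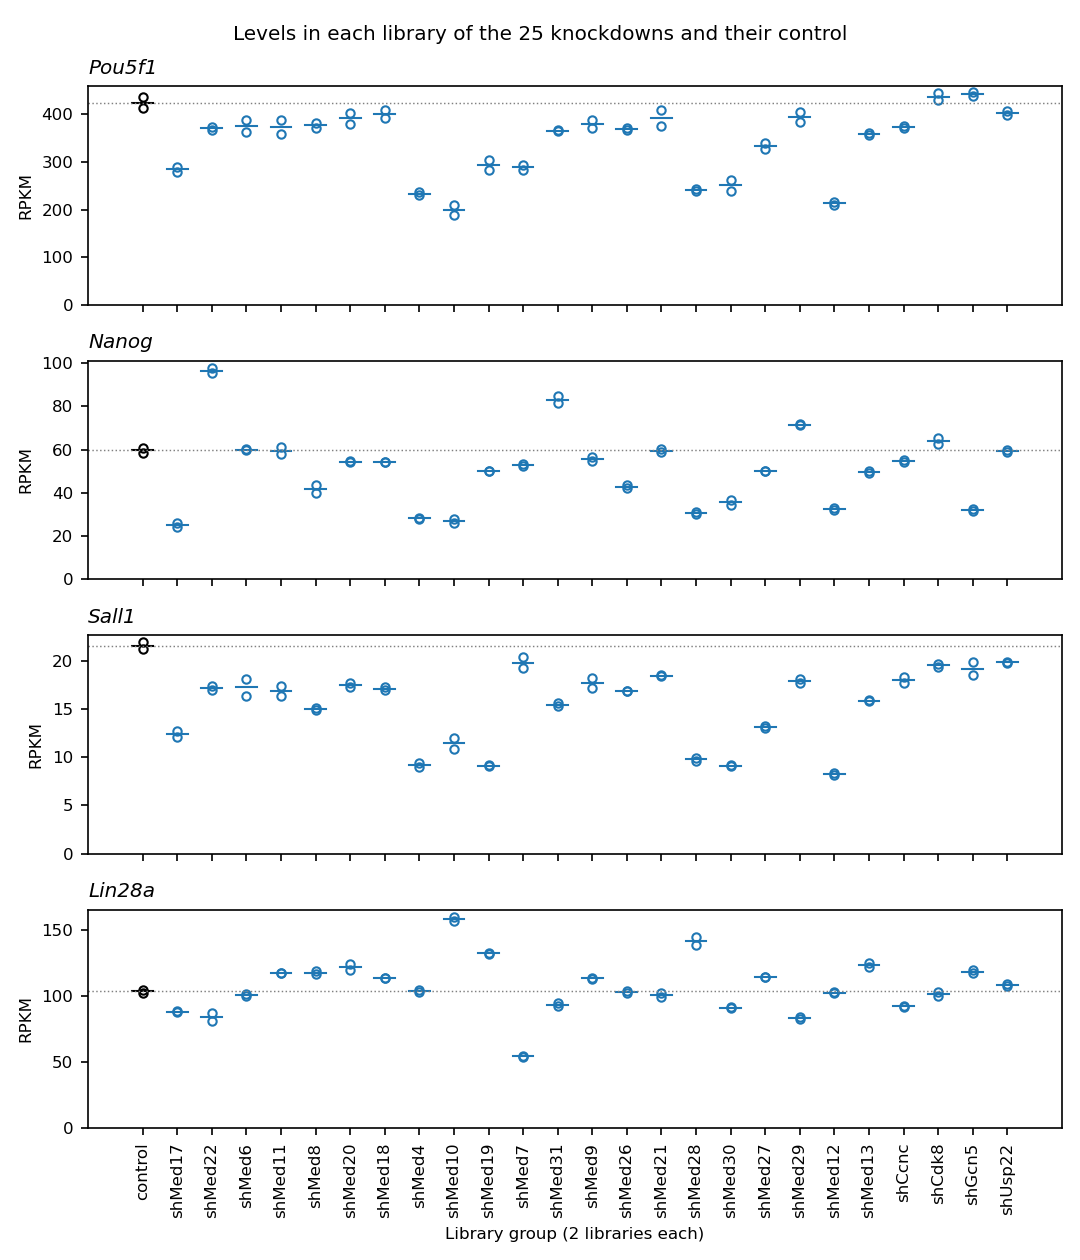
RPKM of Pou5f1, Nanog, Sall1 and Lin28a (panels) in each library of control_B and the 25 knockdowns of set B (horizontal axis). Circles are libraries, short lines are means of 2, and the dotted line is the control mean; Nanog runs from 24.4 RPKM in shMed17 to 97.6 in shMed22.

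Lin28a moved in both directions. It was higher in 11 knockdowns and lower in 7. It was highest in shMed10, at 160.4 and 156.8 RPKM against 104.7 and 102.6 (log2 0.61 ± 0.03, adjusted p = 6.92e-19), where Pou5f1 was lowest, and in shMed28 at 145 and 138.6 (0.45) and shMed19 at 133 and 132 (0.35). It was lowest in shMed7, at 55 and 53.7 RPKM (-0.92 ± 0.03, adjusted p = 1.55e-22). Med10 and Med7 are both middle subunits, and Lin28a differed between their knockdowns by 1.53 ± 0.03 (adjusted p = 4.65e-29, limma). These too were the extremes of the set B knockdowns, picked on the same values. In shMed4 and shMed12, with Pou5f1, Sox2 and Nanog all lower, Lin28a stood at 103.1 and 104.5 RPKM and at 102.9 and 102.8 RPKM, between the control libraries, and was not called.

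The SALL family members differed from each other. Sall1 lay below both control libraries in 25 of 25 knockdowns (31.7% of all pairs did) and was called lower in 24, all but shUsp22. These 25 comparisons share the same 2 control libraries, so they are not 25 separate observations of Sall1. The smallest difference was in shUsp22, at 19.8 and 19.9 RPKM against 22 and 21.2. It was lowest in shMed12, at 8.18 and 8.36 RPKM against 22 and 21.2 (log2 -1.29 ± 0.04, adjusted p = 5.56e-22), then in shMed19 (9.15 and 9.08 RPKM, -1.16), shMed30 (9.06 and 9.19, -1.16) and shMed4 (9.4 and 9.02, -1.15). Sall4 was lower in 3 knockdowns and higher in 7, and 0 of these changes reached 1.5-fold. With upper-quartile scaling Sall4 was lower in 5. Its lowest level was in shMed17, at 51.3 and 52.1 RPKM against 64.6 and 63.2 (-0.30 ± 0.04, adjusted p = 2.75e-08), and its highest in shMed19, at 76.6 and 77 RPKM (0.26 ± 0.04, adjusted p = 3.58e-07). In shMed19, therefore, Sall1 was lower and Sall4 higher, each without overlap with the control.

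Utf1 and L1td1 overlapped with Pou5f1 in part. Utf1 was lower in 10 knockdowns, all with Pou5f1 lower, and higher in 0, with its lowest level in shMed10 at 136 and 111.1 RPKM against 274.2 and 246 (log2 -1.07 ± 0.10, adjusted p = 3.99e-11). Its 2 libraries lay farther apart than those of the other members, with a median difference of 0.12 on the log2 scale. Replicate 1 was the higher of the 2 in 24 of 26 groups. L1td1 was lower in 18, among them shCdk8, where Pou5f1 was not called, and higher in 0; it was lowest in shMed4 at 127.3 and 136.1 RPKM against 232.7 and 239.1 (-0.84 ± 0.04, adjusted p = 7.66e-18). Zfp281 was lower in 14 and higher in 0, but by little: its lowest level was in shMed30, at 21.2 and 22 RPKM against 25.6 and 27.2 (-0.28 ± 0.04, adjusted p = 4.05e-07). Without control_B replicate 2, Zfp281 was lower in 7 knockdowns.

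By knockdown, the strongest changes fell on subunits of different modules. In shMed4 (middle) 7 of the 9 were lower (32.5% of all genes were) and 6 by at least 1.5-fold, with a median log2 change of -0.84 for the members and -0.02 for all genes. In shMed10 (middle) 7 were lower (34.3% of all genes) and 1, Lin28a, was higher (31.5%), with a median of -0.71. In shMed12 (kinase) 7 were lower (31.9%) with a median of -0.73. In shMed28 and shMed30 (upper tail) 7 and 8 were lower (27.7% and 26.1%), with medians of -0.75 and -0.61, and Lin28a was higher in shMed28 (32.3%). In shMed17 (head) all 9 were lower (25.8% of all genes), with a median of -0.38. Knockdown of Med7 gave 7 lower (25.8% of all genes), Med27 7 lower (17.2%) with Lin28a higher (21%), and Med19 7 lower (26.3%) with 2 higher (23.2%), Sall4 and Lin28a. Pou5f1, Sox2, Nanog, Sall1, Utf1, L1td1 and Zfp281 were all lower in shMed4, shMed10, shMed12, shMed17, shMed19, shMed27, shMed28 and shMed30. In shMed22, 5 were lower (11.5%) and 1, Nanog, was higher (11.9%), and in shGcn5, 5 were lower (12.8%) and 1, Lin28a, was higher (20.8%). At the other end, 0 members were called in shUsp22 (4.32% of all genes were), 2 in shMed21 (20.6%) and 2 in shCdk8 (16%). Usp22 itself was at 39.5% of control, Med21 at 28.6% and Cdk8 at 25.5%. Med18, the target least lowered in the set (64.7% of control), went with 2 members lower (4.88%) and 2 higher (3.91%).

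Markers of other cell types moved beside these changes. The summed trophoblast markers were 136.1 and 140.2 RPKM in control_B and 141.4 to 727 RPKM in the 50 knockdown libraries, highest in shMed12. In control_B and shMed4 the keratins Krt8 (45 and 226.7 RPKM) and Krt18 (66.7 and 319.7) made up most of this sum. Cdx2 stood there at 2.182 and 2.885 RPKM and Eomes at 2.281 and 2.665. The summed feeder markers were 2.90 and 3.25 RPKM in control_B and 2.14 to 11.4 RPKM in the knockdown libraries, highest in shMed10 and at 7.03 and 6.71 RPKM in shMed4. In shMed17, with all 9 members lower, the feeder sum was 3.05 and 3.49 RPKM and the trophoblast sum 522.1 and 438.2 RPKM. The summed primitive endoderm markers were 387.2 and 392.5 RPKM in control_B and 321.3 to 722.6 RPKM in the knockdown libraries, highest in shMed26. They stood at 571.2 and 580.5 RPKM in shMed4, 580.3 and 552 in shMed10, 563.6 and 530 in shMed12, and 551.8 and 551.5 in shMed17. They stood at 614.5 and 591.8 RPKM in shMed28 and 578.3 and 591.3 in shMed30. In shMed4, however, 6 of these 13 markers were lower (32.5% of all genes were) and 4 higher (29.8%). The higher ones were Sparc (131.7 to 293.1 RPKM), Col4a1, Col4a2 and Lamb1. Gata6, Sox7, Dab2, Pdgfra, Lama1 and Cubn were lower, and Gata4, Sox17 and Foxa2 were not called. Such sums do not count cells, and the part of other cell types in the members' changes was not tested.

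Whether a module as a whole differed was asked over knockdown means, with the knockdown as the unit. The 4 kinase knockdowns against the 15 of head and middle gave 0 of 9 members called (0% of all genes were, with 369 at an unadjusted p under 0.05 in limma and 0 members among them). Upper tail (4) against head and middle gave 0 of 9 called as well (0% of all genes; 750 unadjusted, 0 members). The intervals were wide. For Pou5f1 the kinase difference was 0.00 (95% interval -0.35 to 0.36), and the upper tail difference was -0.16 (-0.52 to 0.20). For Nanog they were -0.02 (-0.59 to 0.56) and -0.15 (-0.72 to 0.42). Within a module the knockdowns spread widely: in the kinase module Pou5f1 was at 216.3 and 209.7 RPKM in shMed12, 361.1 and 356.8 in shMed13, 375.4 and 372.1 in shCcnc, and 445.5 and 430.2 in shCdk8.

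Over the 25 knockdown means, Pou5f1 levels followed those of Utf1 (Pearson r = 0.94), L1td1 (0.94), Sox2 (0.87) and Sall1 (0.86), and less those of Nanog (0.68). Lin28a (r = -0.13) and Sall4 (0.24) did not follow Pou5f1. Each point is the mean of 2 libraries of one knockdown, so both genes of a pair share their libraries and depth. The few knockdowns with low Pou5f1 can carry much of a Pearson value, and no run left them out. By rank (Spearman) the values were 0.85 for Utf1, 0.90 for L1td1, 0.71 for Sox2, 0.79 for Sall1 and 0.59 for Nanog. For Lin28a and Sall4 they were -0.06 and 0.25. Among 5374 other genes of at least 10 RPKM, those most like Pou5f1 were Xpo1, a nuclear export receptor (r = 0.97), Qdpr (0.97) and Bzw2 (0.965). Those most like Sox2 were Sp1, a factor that binds GC boxes (0.96), Tet1, which oxidises methylated cytosine (0.955), and Zfp42, a marker of ES cells (0.953). Those most like Nanog were Ticrr (0.92), Kat6b (0.91) and Usp48 (0.89). As the highest of 5374, these values of r are picked to be high. They do not measure the size of a change. Over the knockdown means Xpo1 ran only from 6.49 to 6.92 on the log2 scale, Sp1 from 4.63 to 5.07 and Usp48 from 4.67 to 5.15. Pou5f1 ran from 7.65 to 8.79, Tet1 from 4.24 to 6.04 and Zfp42 from 4.45 to 6.5.

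**Figure D3:**
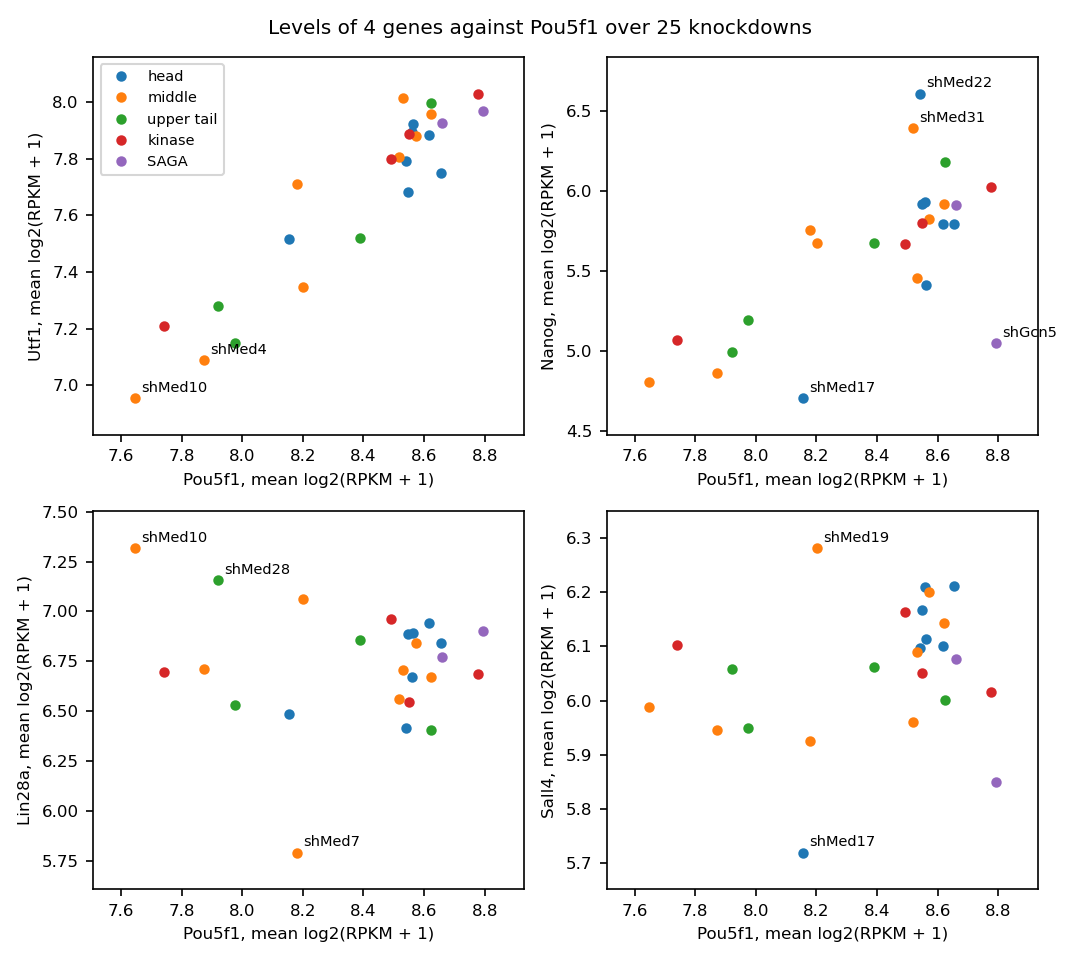
Mean log2(RPKM + 1) of Utf1, Nanog, Lin28a and Sall4 (vertical axes) against that of Pou5f1 (horizontal axes), 1 point for each of 25 knockdowns of set B, coloured by class. Utf1 rises with Pou5f1 (r = 0.94), and Lin28a does not (r = -0.13).

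Other genes around the circuit are described by gene lists in set B. Of 625 pairs of 25 other pluripotency network genes and a knockdown, 313 were lower (50.1%) and 71 higher (11.4%), beside 52.9% and 9.33% for the members. Over all pairs 15.4% were lower and 16% higher. In shMed4, 24 of the 25 were lower (32.5% of all genes were) and 1, Tbx3, was higher (29.8%). Nr0b1, a nuclear receptor of ES cells, went from 31.9 ± 3.19 to 6.21 ± 0.445 RPKM (SD, n = 2; log2 -2.19, adjusted p = 9.89e-17, limma), and Fgf4, a growth factor gene with a known Sox2 and Oct4 enhancer, from 30.7 to 6.97 RPKM (-1.99). Spp1 (-1.43) and Tdgf1, a Nodal coreceptor (-1.39), were lower too. The trophoblast markers went the other way, with 180 of 275 pairs higher (65.5%, where 16% of all pairs were) and 13 lower (4.73%, where 15.4% were). In shMed4 all 11 tested, of 12 listed, were higher (29.8% of all genes were). The largest changes were those of the keratins Krt8 (45 to 226.7 RPKM, 2.31) and Krt18 (66.7 to 319.7, 2.24), Krt7 (1.97) and the trophoblast factor Gata3 (1.78). The smallest were those of Cdx2 (0.29, adjusted p = 0.035, limma) and Eomes (0.16, adjusted p = 0.041). Tfap2a averaged 0.45 RPKM in control_B. It could pass the filter on low values only through libraries where it was high, so its own calls are not read as a result. The 275 pairs and the 11 genes in shMed4 include Tfap2a, so both counts are raised by the filter to that extent. The other tested trophoblast markers averaged 1.18 RPKM (Gata3) or more in control_B, and each was higher in shMed4.

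For relatives of the members, 84 of 225 pairs of paralogs were lower (37.3%, beside 15.4% of all pairs) and 22 higher (9.78%, beside 16%). In shMed4, 5 of 9 tested were lower (32.5% of all genes were) and 1 was higher (29.8%), with Sox1 from 6.74 to 2.27 RPKM (log2 -1.24), Sox3 (-0.59), Pou3f1 (-0.51) and Pou2f1 (-0.28). Genes known as let-7 targets, downstream of Lin28a, counted 3 lower and 3 higher of 10 in shMed4, near the 32.5% and 29.8% of all genes, with Mycn at -0.80 and Hmga1 at -0.41, against Hmga2 at 0.66 and Igf2bp3 at 0.24; Lin28a itself was not called there. Over all knockdowns 64 of their 250 pairs were lower (25.6%) and 44 higher (17.6%). Beside the same 15.4% and 16% of all pairs, primitive endoderm markers had 73 of 325 pairs lower (22.5%) and 90 higher (27.7%). Markers of mesendoderm and neuroectoderm had 34 of 175 lower (19.4%) and 60 higher (34.3%). Of the 12 markers of mesendoderm and neuroectoderm 7 passed the filter on low values. Among them T (0.49 RPKM in control_B) and Fgf5 (0.37) could pass only through libraries where they were high. No result is therefore read from the counts of that list. Of the 10 feeder markers 4 passed. Col1a1, Col1a2 and Col5a2 averaged under 1 RPKM in control_B and could pass only through libraries where they were high, so no count is read from the feeder list.

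**Figure D4:**
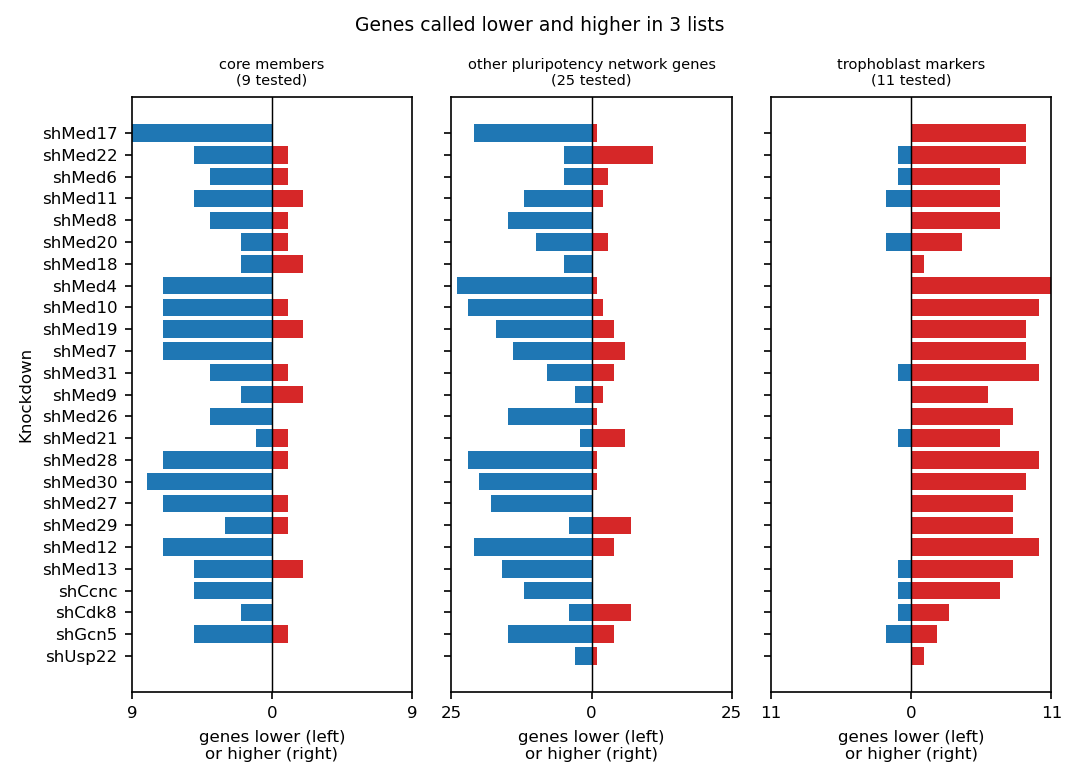
Number of genes called lower (left) or higher (right) in each knockdown of set B for the 9 members, 25 other pluripotency network genes and 11 trophoblast markers tested (limma, adjusted p under 0.05). In shMed4, 24 of the 25 network genes are lower (32.5% of all genes are) and all 11 trophoblast markers higher (29.8%). Tfap2a, counted among the 11, averaged 0.45 RPKM in control_B, and its own calls are not read as a result.

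In set A there is 1 library per knockdown, so a gene is called at 1.5-fold and outside both control libraries, with no test. Of 180 pairs, 9 were lower (1.51% of all pairs were) and 1 was higher (2.11%). The 15 TFIID libraries gave 7 of 135 lower (1.5%) and 0 higher (2.25%), and the 5 of the lower tail gave 2 of 45 lower (1.55%) and 1 higher (1.71%). Pou5f1 was lowest in the library labelled shTaf6, at 172.3 RPKM against 293.4 and 352.5 in control_A (log2 difference -0.90), then in shTaf12 at 197.1 (-0.70) and shMed24 at 213.2 (-0.59). Nanog was lowest in shTbp, at 17.1 RPKM against 41.2 and 43.9 (-1.27), shTaf1 at 18.2 (-1.18) and shTaf2 at 22.4 (-0.90). Taf6 and Taf12 encode histone-fold subunits of TFIID, and in the libraries of the other such subunits Pou5f1 stood between 240.8 RPKM (shTaf13) and 349.2 RPKM (shTaf4b). Tbp encodes the TATA-binding subunit, and Taf1 the largest. Nanog was also low in the libraries labelled replicate 1 of shTaf1 (14.5 RPKM, with Taf1 at 78.8% of control) and of shTaf2 (16.2 RPKM, with Taf2 at 108.7%). In that of shTbp it was not, at 41.33 RPKM (Tbp at 93.3%). Pou5f1 in replicate 1 stood between the controls in shTaf6 (316.1 RPKM, Taf6 at 172.7%) and shTaf12 (300, Taf12 at 106.3%). It stood under both in shMed24 (272.9, Med24 at 86.1%). In the replicate 2 libraries of shTbp, shTaf1 and shTaf2 Pou5f1 stood at 245.2, 248.1 and 262 RPKM, under both controls and within 1.5-fold of them.

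The other calls in set A were Lin28a in shTaf6 (59.1 RPKM against 92.6 and 96.3; -0.67), Utf1 in shTaf12 (134.4 against 214.7 and 277.4; -0.86) and Sall1 in shMed24 (13.1 against 23.6 and 24.9; -0.85). Sox2 had 0 calls, and stood above both controls in 11 of the 15 TFIID libraries, highest in shTaf3 at 139.5 RPKM against 89.6 and 102.9. Lin28a stood above both controls in 13 of 15. Over all genes 42.9% of pairs in these libraries did, and all 15 share the same 2 controls. Nanog was higher in shMed15, at 64.9 RPKM (0.60), a call that was lost under upper-quartile scaling and without control_A replicate 1. The trophoblast sum was 980.4 RPKM in shTaf12, 1044 in shTbp, 673.9 in shTaf6, 680.7 in shTaf1, 692.3 in shTaf2 and 896.5 in shMed24, against 473.1 and 443.5 in control_A; the feeder sum was 8.999 RPKM in shTbp and 3.85 in shTaf6, against 4.42 and 3.50. The primitive endoderm sum was 2820 RPKM in shTbp, 2371 in shTaf1, 2215 in shTaf6, 2110 in shTaf12, 1907 in shTaf2 and 1373 in shMed24, against 1285 and 1329. Here too the sums do not count cells, and the part of other cell types in the members' levels was not tested.

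**Figure D5:**
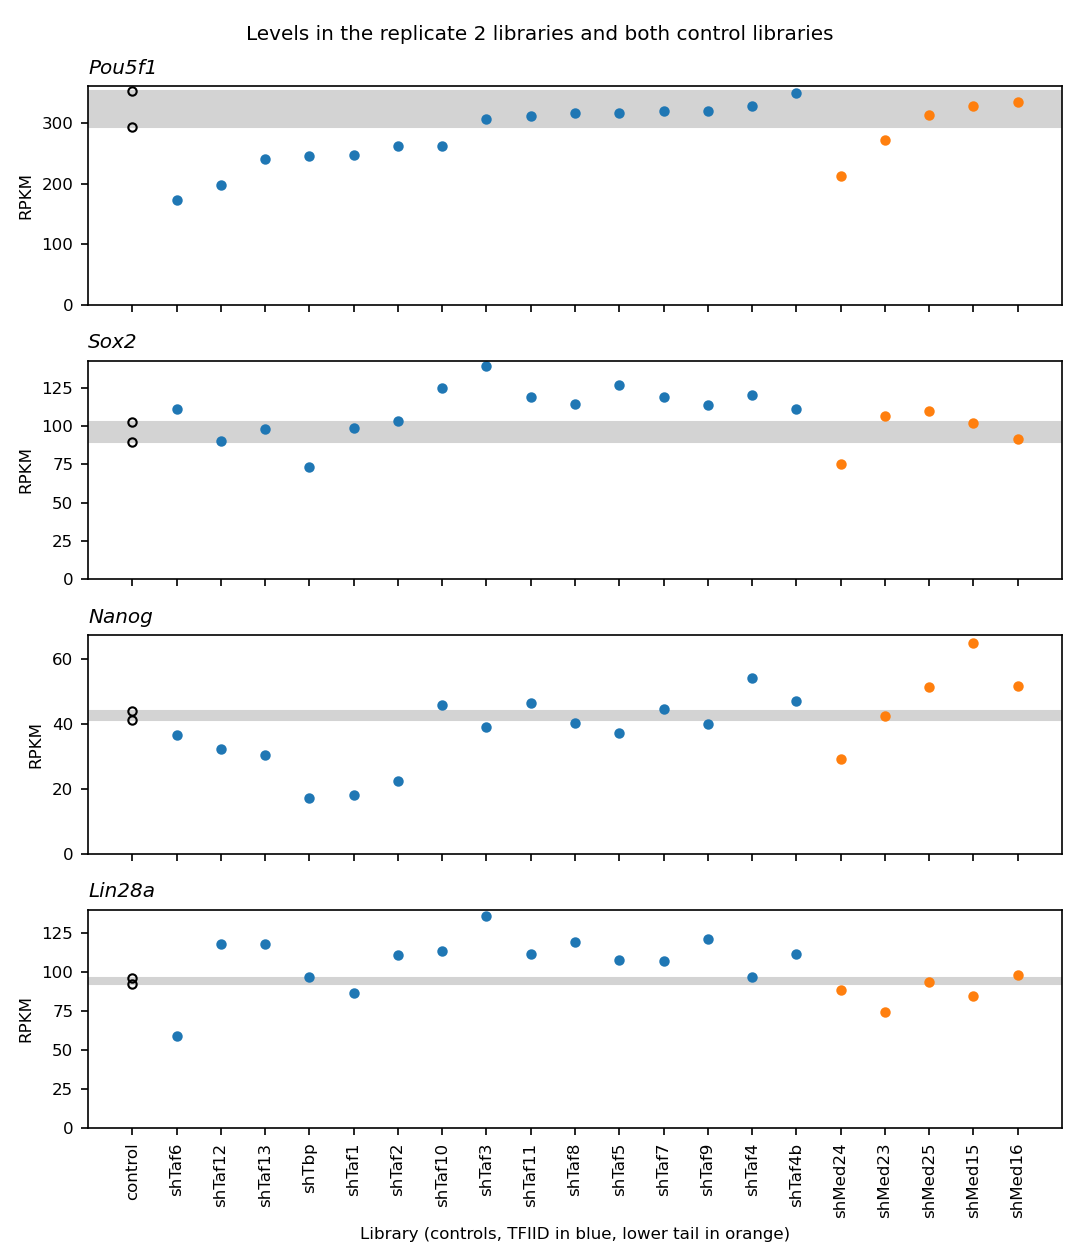
RPKM of Pou5f1, Sox2, Nanog and Lin28a (panels) in the replicate 2 library of each knockdown of set A (horizontal axis; TFIID in blue, lower tail in orange) and both control libraries (circles, range in grey). Nanog is at 17.1 RPKM in shTbp and 18.2 in shTaf1, under both controls at 41.2 and 43.9.

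As classes, the 15 TFIID libraries against the 2 of control_A gave 0 of 9 members called in limma (0.237% of 12252 genes were; 1263 genes and 0 members had an unadjusted p under 0.05). The 5 lower tail libraries gave 0 of 9 (0.0653%; 803 genes and 1 member, Sall1, unadjusted). TFIID against lower tail gave 0 of 9 (7.37%; 3230 genes and 2 members unadjusted). Those 2 were Sall1, higher with TFIID by 0.24 (95% interval 0.03 to 0.45, adjusted p = 0.139), and Lin28a by 0.28 (0.03 to 0.52, adjusted p = 0.146). For Nanog the difference was -0.40 (-0.85 to 0.05) and for Pou5f1 -0.07 (-0.35 to 0.21).

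In set C, 0 of 9 members were called against control_C in shMed1 and 0 in shMed14, where 0% of 11872 genes were called by limma and 47 and 49 had an unadjusted p under 0.05. The libraries disagreed with their labels: Med14 was at 4.98 RPKM in the library labelled shMed1 replicate 2 (controls 7.14 and 7.74), and Med1 at 7.45 RPKM in that labelled shMed14 replicate 2 (controls 11 and 11.9). Each labelled group thus holds 1 library with its target low and 1 with the other subunit low, and the count of 0 says nothing of either subunit. In shMed1 Pou5f1 stood at 412 and 272.4 RPKM, against 417 and 353.6, and Sox2 at 130.2 and 79.5, against 131.1 and 117.8. In shMed14 Pou5f1 stood at 328.7 and 351.2 RPKM and Sox2 at 91.8 and 116.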

How the data were processed

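Per the submitters' processing notes, the authors aligned reads with TopHat2 to mm9. Its version, and the tool and strand setting used for counting, are absent from the sources used here. The authors deposited RPKM values, 1 per RefSeq transcript, for 34995 lines in each of 100 libraries. Being shares of a library, RPKM hide any change that all genes have in common. Of 34855 distinct identifiers, 33481 were named from a RefSeq table of GRCm38.p6 and 188 from GENCODE, and 1186 stayed unnamed. The genome build of the promoter windows, credited to RefSeq, is GRCm38.p6; no coordinates were read from the deposited tables.

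Values were tested as log2(RPKM + 1), which understates the change of low genes, with limma 3.58.1 in R 4.3.3 (trend, two-sided, Benjamini-Hochberg within each comparison) over genes that reached 1 RPKM in 2 or more libraries of the set. Sets B and C were fitted alone, with 26 and 3 residual degrees of freedom, and set A by class. Errors are SE of log2 changes and SD of RPKM. The fit was tested on simulated data. Named genes are all members, up to 4 called genes of each list with the largest change in shMed4, and the 3 genes most like Pou5f1, Sox2 and Nanog. The members and lists were chosen with earlier results of these data known. Alternatives changed the pseudocount, scaling, transcripts, filter, libraries in the fit, replicate block and single libraries.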

Additional observations from a re-analysis of the deposited data

Results flagged for a closer look

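Nanog moved in opposite directions in knockdowns of 2 head subunits: it was higher in shMed22 and lower in shMed17, and the difference between them was 1.904 on the log2 scale (SE 0.037, adjusted p = 3.32e-27, limma). Lin28a did the same in 2 middle subunits, higher in shMed10 and lower in shMed7, with a difference of 1.528 (SE 0.027, adjusted p = 4.65e-29, limma). Each pair joins the highest and the lowest of the 25 knockdowns of set B for that gene. The adjusted p-values do not allow for that choice. The libraries labelled replicate 1 in set A, whose targets were not lowered on the median, held 19 pairs of a member and a library at least 1.5-fold from the control mean and outside both controls. All 19 were lower, and 6 came from the library labelled shMed16 replicate 1 (Med16 at 56.9% of control), with Pou5f1 at 127.3 RPKM and Utf1 at 88.4 RPKM. Nanog was at 14.5 RPKM in the library labelled shTaf1 replicate 1, 16.2 in shTaf2 and 22.2 in shTaf3. Apart from the fit of all 100 libraries, these libraries enter no count of called members in the main comparisons.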

How the results depend on the processing

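Of the 140 calls in set B, 0 changed direction under any alternative run. The 119 lower and 21 higher pairs became 36 and 2 with a change of at least 1.5-fold required, and 44 and 3 in a fit of all 100 libraries. Leaving out single libraries gave 105 to 109 lower and 19 to 21 higher, where a group left with 1 library is assumed to vary like the others. Upper-quartile scaling kept 131 of the 140 calls and added 14. A fit of 80 libraries, chosen after seeing the data, kept 105. Deviations of same-numbered libraries correlated with a median of 0.096 over 325 pairs of groups, above 0 in 319 and above 0.1 in 152. Of 26 groups, replicate 1 was higher in 25 for Pou5f1, 24 for Sox2, 24 for Utf1, 21 for Sall4 and 20 for Lin28a. It was higher in 18 for Sall1, 13 for Nanog, 8 for Zfp281 and 5 for L1td1. The numbers thus mark a shared difference, weak by the correlations but regular in several members. Not every pair passed 0.1, and the labels name no pairing, so the main fit leaves this difference in the spread. With the replicate block 133 pairs were lower and 26 higher, with all 140 calls kept and 19 gained. Some pairs not called in the main fit are thus called with the block. In set A, the 9 lower pairs became 2 at 2-fold and 19 with the replicate 1 libraries, and 7 to 12 without single controls. The 1 higher pair became 0 at 2-fold, with replicate 1 libraries and with upper-quartile scaling, and 0 to 2 without single controls. In set C, 0 calls became 12 against control_B in the fit of all 100 libraries. Control_C itself differed from control_B, with mean Nanog at 137.7 against 59.6 RPKM, Sall4 at 34.2 against 63.9 and L1td1 at 138.1 against 235.9. Sox2 was close, at 124.4 against 118. The 12 calls thus include the difference between the control sets and are not read as effects of Med1 or Med14. How many of them rest on it was not tested. The class comparisons gave 0 members under every alternative run. With 1 library per knockdown in set A, no error can be given there.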
